A study of Homo sapiens with 4 samples.

Results

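The mRNAs of 54 genes of DNA replication were followed through the differentiation of U937 cells, an established human myeloid line that came from a histiocytic lymphoma. The genes were picked by name for their place at the replication origin or fork, and each of the 54 symbols matched 1 row among the 60662 genes of the deposited count table. The treatment was 72 h with phorbol 12-myristate 13-acetate (PMA) at 10 nM, an activator of protein kinase C, and untreated cells were kept for the same 72 h without it. There were 2 libraries with PMA and 2 untreated, with 1 of each from lot 1 and from lot 2 of the cells. All 4 were poly(A) RNA of cells grown in serum, and the labels give the aim of the treatment as a macrophage-like state. Whether the lots were separate cultures is not stated, and if they were not, the spread behind each p-value is technical.

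Before S phase, the origin recognition complex, CDC6 and CDT1 load the ring-shaped MCM2-7 helicase onto origins, a step called licensing. Cyclin-dependent and DBF4-dependent kinases then recruit CDC45 and the GINS complex, which turn the ring into a running helicase, and polymerases, a sliding clamp and its loader follow at the fork. Many of these genes are transcribed at the G1/S transition under E2F transcription factors, and cells that leave the cycle shut them down. PMA is long known to stop the proliferation of U937 cells as they differentiate.

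Total counts were 35739833 (lot 1) and 50822971 (lot 2) with PMA, and 54915928 (lot 1) and 41308603 (lot 2) untreated. Pairs of values give lot 1 first and lot 2 after it, and lots 1 and 2 are replicates 1 and 2 of each group. Levels are normalised CPM, which scale each count to the TMM-adjusted library size. Brackets after a gene's levels hold the log2 fold change of PMA over untreated ± its standard error (2 libraries per group) and the adjusted p of edgeR. All 7 myeloid genes of the marker list were present in all 4 libraries, with summed levels of 1834 and 1516 CPM with PMA, against 950 and 1591 CPM untreated. SPI1, the myeloid transcription factor PU.1, had 307 and 343 CPM with PMA, against 126 and 164 CPM untreated, and CD33, a myeloid surface receptor, had 72.7 and 66.1 CPM with PMA, against 62.3 and 71.1 CPM untreated. FCGR2A, an Fc receptor, rose (3.59 ± 0.44, adjusted p = 0.0258), and LYZ, the lysozyme gene, (−1.63 ± 0.91, adjusted p = 0.330) and CSF3R, the G-CSF receptor, (−0.24 ± 0.30, adjusted p = 0.668) had fold changes below 0 and did not pass the test. The T cell genes CD3D, CD3E and CD3G, the globin genes HBA1 and HBB, and the collagen genes COL1A1 and COL1A2 were at 0 in every library. PDGFRB, a fibroblast marker, had 0.644 and 0.151 CPM with PMA, against 0.965 and 0 CPM untreated, and the B cell marker CD79A had 2.52 and 6.88 CPM with PMA, against 1.68 and 2.41 CPM untreated. The share of counts from mitochondrial genes followed the lots, at 2.81% and 5.99% with PMA and 3.66% and 8.58% untreated. Its part in the results was not tested.

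Replication mRNAs were lower with PMA nearly throughout the machinery. Together the 54 genes had 1003 and 901 CPM with PMA, against 5314 and 5626 CPM untreated. Of the 53 genes that passed the filter on low counts, 18 fell past the threshold of 0.05 and 0 rose, by the quasi-likelihood test of edgeR and Benjamini-Hochberg adjustment over all 16451 genes tested. This is a share of 34.0%, where 2.02% of all genes tested were lower and 4.29% higher. Without the adjustment, 42 members were lower with a p under 0.05, against 12.5% of all genes tested. DESeq2 called 39 members lower and 0 higher, against 10.2% of all genes called lower by the same tool. In 51 of the 53 genes both PMA libraries lay below both untreated ones, against 29.4% of all genes tested. The fitted log2 fold change, PMA over untreated, had a median of −2.77 over the 53 genes and of 0.00 over all genes tested. It ran from −6.67 for E2F2 to 0.93 for E2F3, the member with a fold change above 0. E2F7, a repressor of the E2F family, was at 0 in all 4 libraries, where 3 counts would be 0.0475 to 0.0921 CPM, and could not be tested. In bulk RNA, fewer cells in S phase and less of these mRNAs per cell cannot be told apart.

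The 18 called genes had log2 fold changes of −5.92 to −2.11 and adjusted p-values of 0.0163 to 0.0453. Their number was smaller without either PMA library and larger without either untreated one. The number of all genes called lower moved the same way, down without a PMA library and up without an untreated one. The median log2 fold change of the tested members moved little when a PMA library was dropped. From −2.77 with all libraries it went to −2.85 without PMA replicate 1 and −2.62 without PMA replicate 2. Dropping untreated replicate 1 gave −2.88, and dropping untreated replicate 2 gave −2.43. Why the number of calls moved was not tested. With 1 library left out, its group is a single sample that is assumed to vary like the other group. Without PMA replicate 1, 16 members were called, 8 of them among the 18 and 6 at 0 in the PMA library that is left, and without PMA replicate 2, 6 were called, 5 of them among the 18. Leaving out untreated replicates 1 and 2 in turn gave 27 and 21, with all 18 kept each time. With the lot as a block the number was again 18, against 1.48% of all genes, but CDC6, RFC4 and TIMELESS were lost, and PRIM1, RFC3 and CHAF1B came in. The authors' deposited table calls 19 members lower, against 2.72% of the genes tested here, namely 15 of the 18 and CDC45, PRIM1, RFC3 and E2F2.

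**Figure D1:**
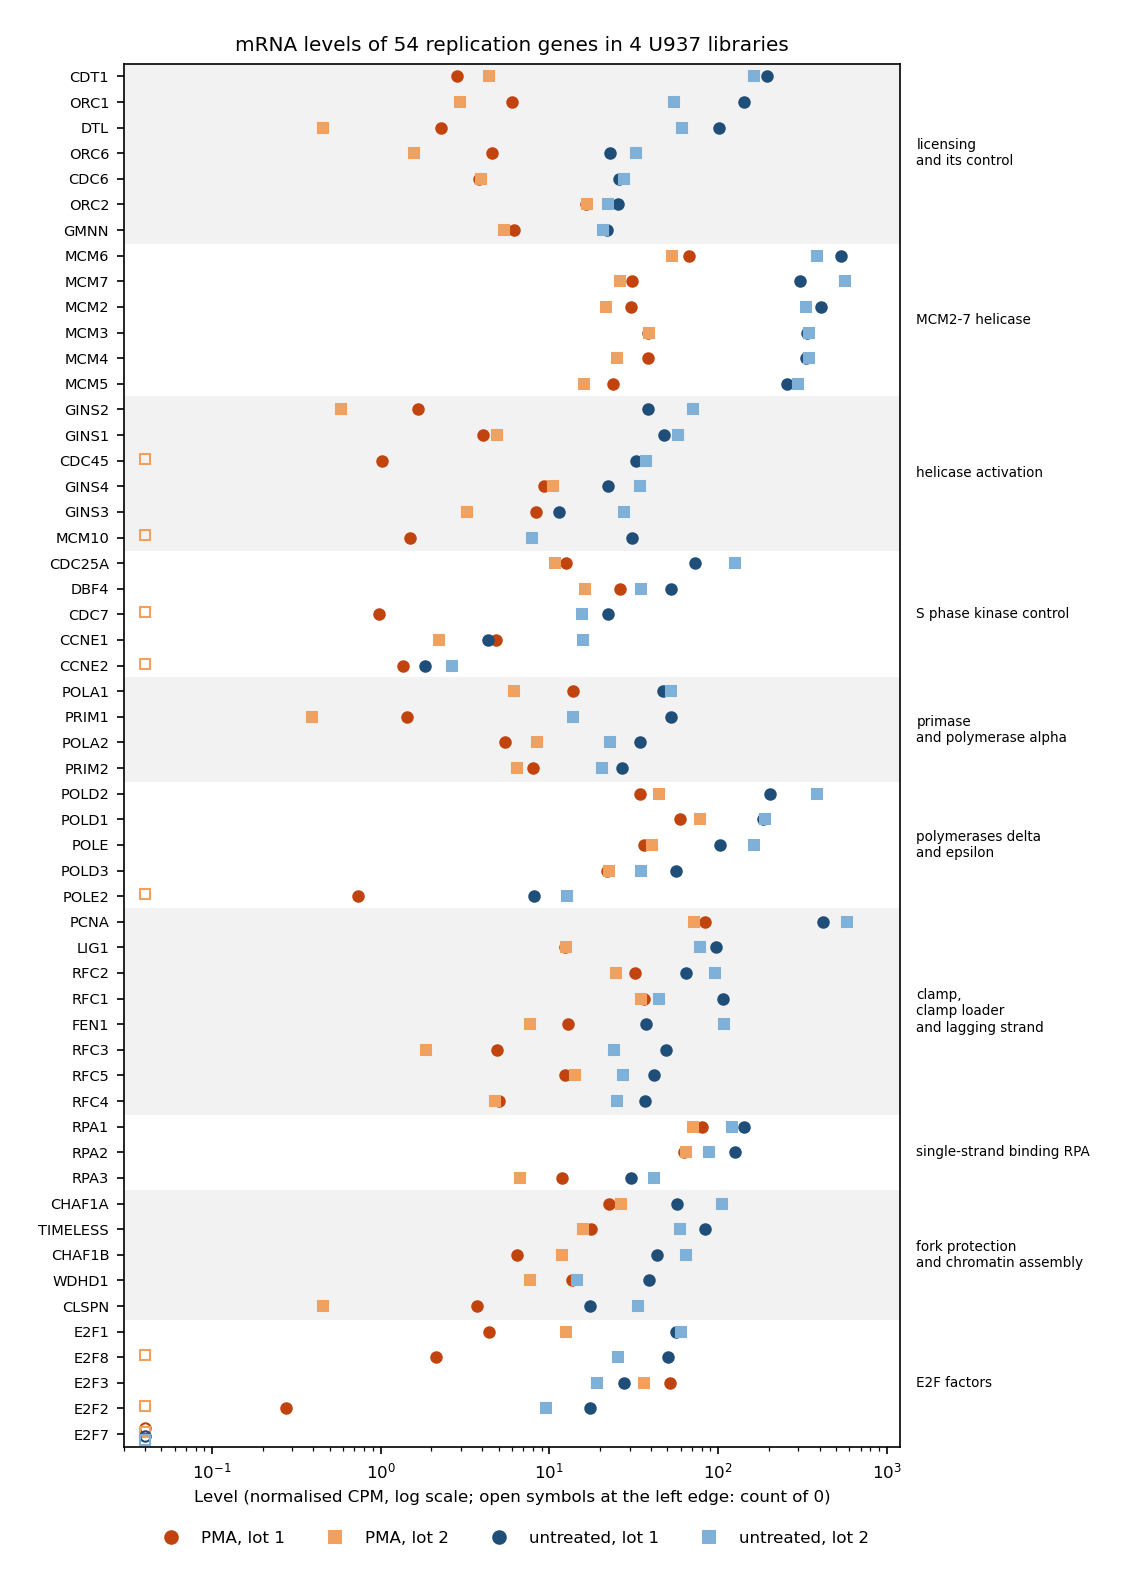
Level of each of the 54 genes in each library, in normalised CPM on a log axis, grouped by role and sorted by the untreated mean. Circles are lot 1, squares lot 2, red and orange PMA, dark and light blue untreated, and open symbols at the left edge are counts of 0. The PMA symbols lie left of both untreated symbols in 51 of the 53 tested genes, E2F3 lies the other way, and PMA lot 2 alone is at 0 in 7 genes.

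Because many of the members are known targets of E2F factors, their promoters were searched for the E2F motif. RefSeq promoters of GRCh38.p14, from 250 bases before to 50 after each start, were at hand for 46 of the 54 genes, and not for MCM4, MCM5, GINS4, CCNE2, POLD3, RPA2, RPA3 and E2F8. The motif was any of TTTCCCGC, TTTGGCGC, TTTCGCGC and TTTGCCGC on either strand, and a match on each strand counted separately even where the pair overlapped. It was found in 12 of the 16 promoters of called genes and in 10 of the 29 promoters of tested genes that were not called (34.5%), making 22 of 46 in all (47.8%). Among the 10233 promoters of genes tested it was found in 560 (5.47%), and among all 27305 promoters in 3.33%. The members were chosen as replication genes, so their high share as a whole says nothing about PMA. Called and not called are set by the adjusted p, not by the size of the fall. A link between the motif and the fall was not tested. Of 29 matches, 23 were centred within 100 bases before the start or after it. The called genes without a match were ORC1, POLD2, RFC4 and TIMELESS. A CCAAT box, the 5 letters CCAAT on either strand, stood in 12 of the 16 and 14 of the 29 promoters, against 36.7% of those of genes tested. The cell cycle gene element CHR, TTTGAA on either strand, stood in 0 of the 16 and 2 of the 29, against 9.72%. Matches are letters only, and whether a factor bound there was not measured.

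The promoters of 7 called genes are printed 5′ to 3′ on the strand of the gene, with E2F matches in capitals, to show helicase and licensing genes with 4, 2, 1 and 0 matches. They lie at chr3:127598161-127598460, plus strand (MCM2), chr2:135876394-135876693, minus strand (MCM6), chr7:100101348-100101647, minus strand (MCM7), chr16:88803539-88803838, plus strand (CDT1), chr17:40287629-40287928, plus strand (CDC6), chr1:212035498-212035797, plus strand (DTL) and chr1:52404374-52404673, minus strand (ORC1). In MCM2 and MCM6 the capitals hold overlapping pairs of matches on opposite strands.
MCM2: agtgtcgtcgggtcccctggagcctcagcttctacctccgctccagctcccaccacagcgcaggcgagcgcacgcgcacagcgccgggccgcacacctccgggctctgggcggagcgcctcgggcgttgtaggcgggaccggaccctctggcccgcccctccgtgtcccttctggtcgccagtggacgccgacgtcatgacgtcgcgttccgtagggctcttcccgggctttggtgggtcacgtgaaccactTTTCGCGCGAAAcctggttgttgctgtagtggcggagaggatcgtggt
MCM6: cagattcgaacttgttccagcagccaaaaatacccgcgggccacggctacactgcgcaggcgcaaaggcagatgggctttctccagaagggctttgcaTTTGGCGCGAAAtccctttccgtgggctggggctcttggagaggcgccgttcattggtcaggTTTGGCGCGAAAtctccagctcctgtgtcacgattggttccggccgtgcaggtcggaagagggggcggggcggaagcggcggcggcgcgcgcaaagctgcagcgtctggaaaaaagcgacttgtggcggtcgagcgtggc
MCM7: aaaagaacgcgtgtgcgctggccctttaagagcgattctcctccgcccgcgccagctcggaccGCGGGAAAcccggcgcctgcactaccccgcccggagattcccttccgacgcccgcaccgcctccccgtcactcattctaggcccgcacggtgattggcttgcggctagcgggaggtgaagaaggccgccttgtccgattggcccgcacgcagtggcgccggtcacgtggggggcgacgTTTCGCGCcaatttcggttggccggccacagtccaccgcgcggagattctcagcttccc
CDT1: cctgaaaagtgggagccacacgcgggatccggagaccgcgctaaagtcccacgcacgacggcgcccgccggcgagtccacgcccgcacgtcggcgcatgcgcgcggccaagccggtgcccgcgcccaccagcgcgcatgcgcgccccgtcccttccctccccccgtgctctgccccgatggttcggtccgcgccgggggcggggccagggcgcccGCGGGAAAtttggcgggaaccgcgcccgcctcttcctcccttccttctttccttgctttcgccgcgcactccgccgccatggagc
CDC6: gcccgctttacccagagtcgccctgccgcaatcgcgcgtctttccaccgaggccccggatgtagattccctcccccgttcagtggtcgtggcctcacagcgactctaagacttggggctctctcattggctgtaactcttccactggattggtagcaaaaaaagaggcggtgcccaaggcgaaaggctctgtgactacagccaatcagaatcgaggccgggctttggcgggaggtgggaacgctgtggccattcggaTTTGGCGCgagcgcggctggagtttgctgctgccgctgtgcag
DTL: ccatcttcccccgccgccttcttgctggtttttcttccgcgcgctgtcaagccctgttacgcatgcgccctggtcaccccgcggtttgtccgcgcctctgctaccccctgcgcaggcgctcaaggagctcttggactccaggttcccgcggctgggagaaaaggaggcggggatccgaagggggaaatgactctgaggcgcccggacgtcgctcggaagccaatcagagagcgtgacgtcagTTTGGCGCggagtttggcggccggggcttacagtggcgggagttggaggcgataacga
ORC1: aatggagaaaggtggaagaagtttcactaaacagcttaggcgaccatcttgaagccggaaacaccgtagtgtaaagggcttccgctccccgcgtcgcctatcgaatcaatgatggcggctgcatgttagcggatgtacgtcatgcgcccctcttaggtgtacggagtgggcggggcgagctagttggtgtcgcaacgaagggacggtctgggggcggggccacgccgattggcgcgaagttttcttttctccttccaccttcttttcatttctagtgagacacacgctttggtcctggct

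**Figure D2:**
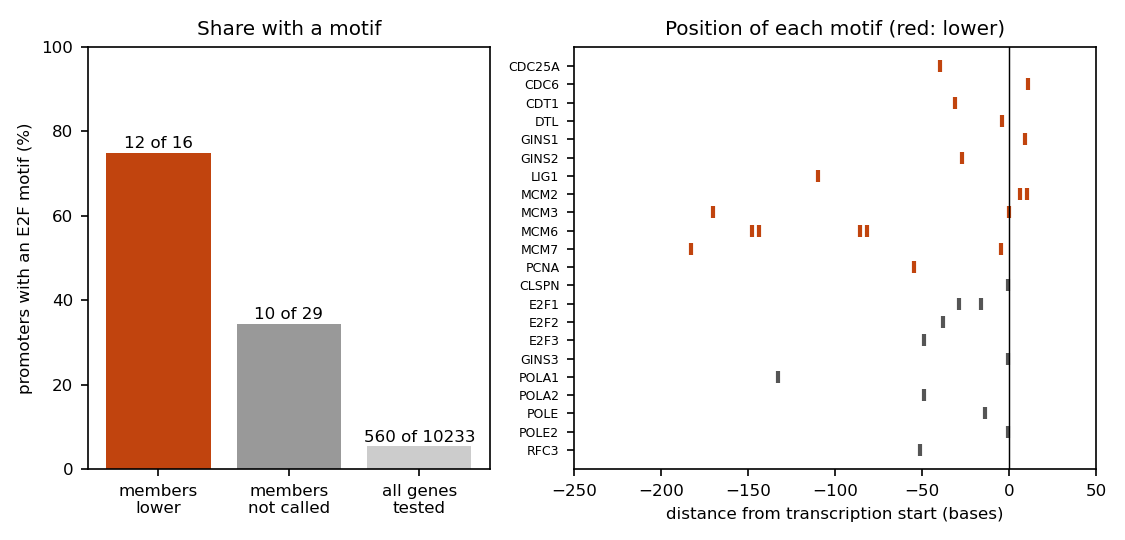
Left, the percentage of promoters with an E2F motif among called members (12 of 16), members tested and not called (10 of 29) and all genes tested (560 of 10233). Right, the centre of each of the 29 matches in bases from the transcription start, in red for called members and grey for the others, most of them close to the start.

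Licensing genes were lower with PMA in both lots. Of the 7 genes of licensing and its control, 4 fell and 0 rose, against 2.02% of all genes tested called lower. The median log2 fold change of the 7 was −3.18. CDT1, which brings MCM2-7 to the origin, had 2.82 and 4.37 CPM with PMA, against 195 and 163 CPM untreated. The groups did not overlap, and the PMA mean was 49.9-fold lower (−5.64 ± 0.44, adjusted p = 0.0163). DTL, the adaptor through which a ubiquitin ligase destroys CDT1 in S phase, had 2.27 and 0.454 CPM with PMA, against 102 and 61.6 CPM untreated. It was 60.0-fold lower (−5.92 ± 0.96, adjusted p = 0.0377). So both the licensing factor and the gene for its destruction were at a few CPM or less with PMA. ORC1, the regulated large subunit of the origin recognition complex, had 6.05 and 2.96 CPM with PMA, against 142 and 54.8 CPM untreated, with the untreated lots far apart (−4.45 ± 0.71, adjusted p = 0.0374). CDC6, the ATPase that loads MCM2-7 with CDT1, had 3.81 and 3.94 CPM with PMA, against 25.8 and 27.8 CPM untreated, and the replicates lay close together (−2.79 ± 0.43, adjusted p = 0.0354). Omitting PMA replicates 1 and 2 one at a time gave CDC6 adjusted p-values of 0.166 and 0.183, and with the lot as a block 0.0509, within 2.58e-08 to 0.183 over the alternatives. For ORC1 it was 0.0903 without PMA replicate 2, within 3.69e-10 to 0.0903.

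The other 3 genes of this group did not pass the test. ORC6, a small subunit of the origin recognition complex, had 4.57 and 1.58 CPM with PMA, against 22.8 and 32.8 CPM untreated (−3.18 ± 0.69, adjusted p = 0.0624). GMNN, the geminin gene, whose protein holds CDT1 inactive after licensing, had 6.17 and 5.39 CPM with PMA, against 22.0 and 20.9 CPM untreated (−1.89 ± 0.43, adjusted p = 0.0671). GMNN passed with DESeq2 (adjusted p = 5.47e-04) and limma-voom (0.0493). ORC2, a core subunit, was nearest to 0 with 16.6 and 16.8 CPM with PMA, against 25.4 and 22.4 CPM untreated (−0.52 ± 0.38, adjusted p = 0.455). ORC6 passed without untreated replicate 1 (adjusted p = 0.0429, within 9.54e-05 to 0.227 over the alternatives). Per kilobase of transcript, the ratio of ORC1 to ORC2 was 0.498 and 0.241 with PMA, against 7.62 and 3.34 untreated. The ratio of CDT1 to GMNN, the licensing factor over its inhibitor, was 0.178 and 0.316 with PMA, against 3.46 and 3.04 untreated, so GMNN mRNA outweighed CDT1 mRNA per length with PMA in both lots and the reverse held untreated.

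Where 2.02% of all genes tested were called lower, the 6 subunits of the MCM2-7 helicase all fell. Their summed level was 229 and 182 CPM with PMA, against 2175 and 2279 CPM untreated, and their share of the summed level of the 54 genes was 22.9% and 20.2% with PMA, against 40.9% and 40.5% untreated. MCM7 had 30.8 and 26.2 CPM with PMA, against 308 and 569 CPM untreated and was 15.4-fold lower (−3.94 ± 0.45, adjusted p = 0.0244). MCM2, the subunit that also binds histones, had 30.5 and 21.8 CPM with PMA, against 406 and 334 CPM untreated (−3.82 ± 0.37, adjusted p = 0.0211), and MCM5 had 23.8 and 16.0 CPM with PMA, against 255 and 299 CPM untreated (−3.80 ± 0.38, adjusted p = 0.0223). These 3 genes lay at 16.0 to 30.8 CPM in both PMA lots and above 250 CPM in both untreated lots. MCM4 had 38.6 and 25.1 CPM with PMA, against 333 and 346 CPM untreated (−3.42 ± 0.38, adjusted p = 0.0235). MCM3 had 38.6 and 39.0 CPM with PMA, against 337 and 345 CPM untreated, the closest replicates of the group (−3.13 ± 0.30, adjusted p = 0.0211). MCM6 had 66.9 and 53.6 CPM with PMA, against 536 and 387 CPM untreated and the smallest fold change of the 6 (−2.94 ± 0.35, adjusted p = 0.0253), though the fold changes differ by about 1 on the log2 scale and each has a standard error of 0.30 to 0.45. Per kilobase of transcript, the level of the highest of the 6 subunits was 2.66 and 3.16 times that of the lowest with PMA, against 1.99 and 2.32 times untreated. MCM5 was the lowest in 3 of the 4 libraries and MCM6 the highest in 3.

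All 6 calls held with untreated replicate 1 or 2 left out, with the lot as a block, with DESeq2 and with limma-voom. Omitting PMA replicate 2 gave adjusted p-values of 0.0694 for MCM3, 0.0694 for MCM4, 0.0552 for MCM5 and 0.0938 for MCM6, and omitting PMA replicate 1 gave 0.0516 for MCM3 and 0.0509 for MCM6. The ranges over the alternatives were 1.95e-19 to 0.0694 for MCM3, 1.24e-14 to 0.0694 for MCM4, 1.29e-17 to 0.0552 for MCM5 and 1.49e-12 to 0.0938 for MCM6. MCM2 and MCM7 passed in every alternative. Exons of MCM2 and MCM7 overlap those of TPRA1 and AP4M1 on the opposite strand, and reads of such pairs cannot be told apart without strand.

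The factors that turn the loaded ring into an active helicase were low with PMA, but 4 of the 6 did not pass the test. The other 2 were called lower, against 2.02% of all genes tested. GINS2, a subunit of the GINS complex, had 1.66 and 0.584 CPM with PMA, against 38.5 and 71.4 CPM untreated and was 49.0-fold lower (−5.63 ± 0.77, adjusted p = 0.0286). GINS1 had 4.02 and 4.91 CPM with PMA, against 48.1 and 57.7 CPM untreated (−3.57 ± 0.41, adjusted p = 0.0247). Omitting PMA replicates 1 and 2 one at a time gave GINS1 adjusted p-values of 0.0825 and 0.0896, within 7.42e-15 to 0.0896 over the alternatives, while GINS2 passed in every alternative. Exons of GINS2 overlap those of GSE1 on the opposite strand, so its level is uncertain. The other pair of GINS subunits did not pass the test. GINS4 had 9.30 and 10.5 CPM with PMA, against 22.3 and 34.3 CPM untreated (−1.52 ± 0.44, adjusted p = 0.102), and passed without untreated replicate 1 (adjusted p = 0.0432, within 0.0134 to 0.501). GINS3 had 8.32 and 3.27 CPM with PMA, against 11.5 and 27.6 CPM untreated, with the groups close in lot 1 and apart in lot 2 (−1.76 ± 0.73, adjusted p = 0.208). Per kilobase, the ratio of GINS2 to GINS4, which stand in the complex in equal number, was 0.256 and 0.0800 with PMA, against 2.48 and 2.99 untreated.

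CDC45, which joins MCM2-7 and GINS in the running helicase, had 1.01 and 0 CPM with PMA, against 32.6 and 37.2 CPM untreated. MCM10, needed for the helicase to start moving, had 1.50 and 0 CPM with PMA, against 31.0 and 7.95 CPM untreated, with the untreated lots apart. Both were listed at 0 in PMA lot 2, and neither passed the test (−6.15 ± 1.74, adjusted p = 0.0982 for CDC45 and −4.72 ± 1.98, adjusted p = 0.211 for MCM10). Leaving out PMA replicate 2, which leaves the PMA library above 0, brought the adjusted p of CDC45 to 0.0408, within 0.00540 to 0.131 over the alternatives.

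Counts of 0 in PMA lot 2 alone mark 7 members, CDC45, MCM10, CDC7, CCNE2, POLE2, E2F2 and E2F8. They had 0.276 to 2.12 CPM in PMA lot 1 and 1.84 to 50.7 CPM in the untreated lots. Their log2 fold changes reached −6.67, with standard errors of 1.61 to 2.0, against 0.30 to 1.11 for the other tested members, and 0 of the 7 passed the test. No member was at 0 in PMA lot 1 or an untreated library alone. Among all genes tested, 2.77% were at 0 in PMA lot 2 only, 0.796% in PMA lot 1 only, 0.426% in untreated lot 1 only and 4.91% in untreated lot 2 only. Without PMA replicate 1, the PMA group of these genes is 1 library at 0, and the spread comes from the untreated libraries alone. The adjusted p-values were then 0.00540 for CDC45, 0.0142 for MCM10, 0.00739 for CDC7, 0.0129 for POLE2, 0.0108 for E2F2, 0.00594 for E2F8 and 0.101 for CCNE2. They rest on that single 0 and are not read as calls, though the ranges over the alternatives include them. A listed 0 can be a failed estimate, and 3 counts in PMA lot 2 would be 0.0649 CPM.

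**Figure D3:**
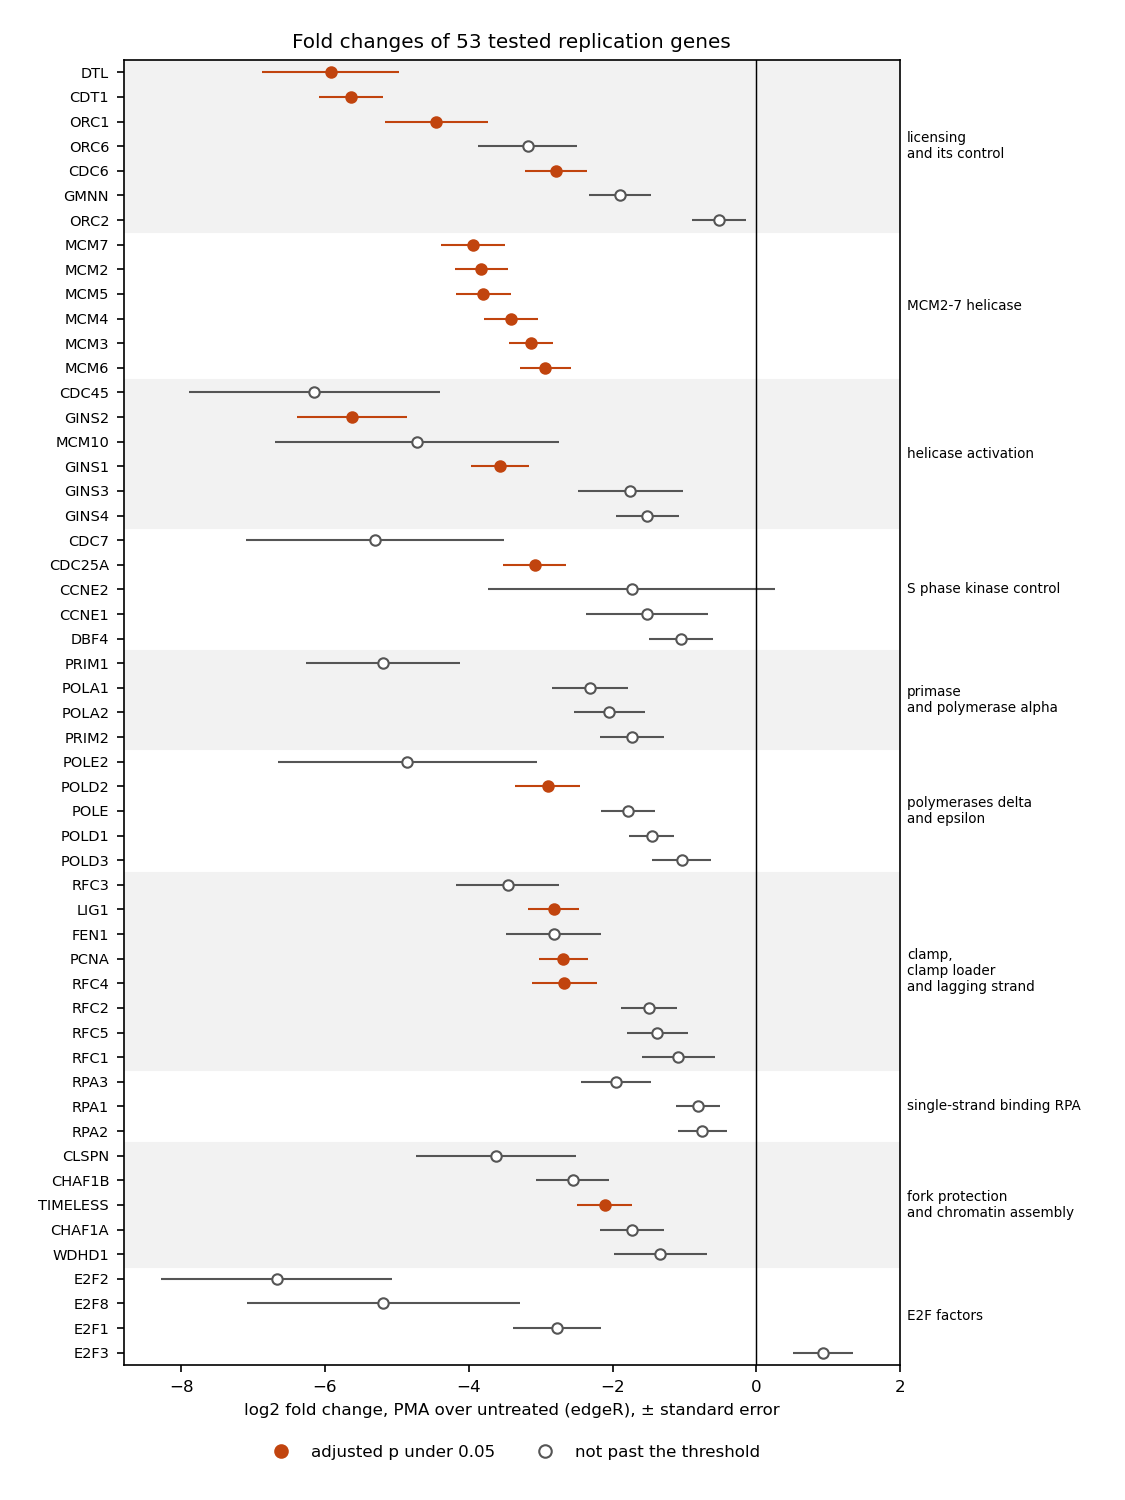
Log2 fold change, PMA over untreated, of the 53 tested genes by role, with its standard error. Filled red points passed an adjusted p of 0.05 and open points did not. The 6 MCM2-7 subunits lie together between −3.94 and −2.94, the 7 genes at 0 in PMA lot 2 have the widest bars, and E2F3 is the one point right of 0.

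The kinases and cyclins that start S phase were less uniform, with 1 of 5 genes called, against 2.02% of all genes tested called lower. CDC25A, the phosphatase that removes inhibitory phosphates from CDK2, had 12.6 and 10.8 CPM with PMA, against 72.8 and 126 CPM untreated (−3.08 ± 0.44, adjusted p = 0.0310). Its adjusted p-values with PMA replicates 1 and 2 omitted one at a time were 0.0935 and 0.143, within 6.34e-09 to 0.143 over the alternatives. CDC7, the kinase that phosphorylates the MCM ring, had 0.982 and 0 CPM with PMA, against 22.3 and 15.7 CPM untreated (−5.30 ± 1.79, adjusted p = 0.140). It passed with DESeq2 (adjusted p = 0.00252), within 0.00252 to 0.165 over the alternatives. DBF4, the activating subunit of CDC7, was nearest to 0 in the group, with 26.1 and 16.4 CPM with PMA, against 52.6 and 35.1 CPM untreated (−1.05 ± 0.45, adjusted p = 0.218). The per-kilobase ratio of CDC7 to DBF4 was 0.0443 and 0 with PMA, against 0.500 and 0.527 untreated. The cyclin E genes, whose products activate CDK2, were at 0 to 15.9 CPM. CCNE1 had 4.85 and 2.21 CPM with PMA, against 4.34 and 15.9 CPM untreated and was the one tested member with ratios of opposite sign in the lots (−1.52 ± 0.85, adjusted p = 0.333). CCNE2 had 1.35 and 0 CPM with PMA, against 1.84 and 2.64 CPM untreated (−1.74 ± 2.0, adjusted p = 0.643).

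DNA polymerase alpha and primase lay the first stretch of each new strand. None of their 4 genes was called by edgeR. An unadjusted p under 0.05 was seen in 4, against 12.5% of all genes tested that were lower. DESeq2 called 4, against 10.2% called lower. In each gene both PMA libraries lay below both untreated ones, as in 29.4% of all genes tested. PRIM1, the catalytic primase subunit, had 1.44 and 0.389 CPM with PMA, against 52.6 and 13.8 CPM untreated (−5.19 ± 1.07, adjusted p = 0.0573). It passed under a lot block (adjusted p = 0.0338), without untreated replicate 2 (0.0308) and without PMA replicate 1 (0.0371), within 2.61e-07 to 0.108 over the alternatives. Its exons overlap those of NACA, on the same strand, in GENCODE release 29, so its level is uncertain. POLA1, the catalytic polymerase subunit, had 13.9 and 6.19 CPM with PMA, against 47.4 and 52.7 CPM untreated (−2.32 ± 0.53, adjusted p = 0.0664), and its partner POLA2 had 5.46 and 8.50 CPM with PMA, against 34.7 and 22.9 CPM untreated (−2.04 ± 0.49, adjusted p = 0.0737). Exons of POLA2 overlap those of AP000944.2 on the same strand, so the level of POLA2 is uncertain too. PRIM2, the large primase subunit, was nearest to 0, with 7.98 and 6.45 CPM with PMA, against 27.2 and 20.5 CPM untreated (−1.72 ± 0.44, adjusted p = 0.0822).

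Polymerases delta and epsilon copy the lagging and the leading strand. Of their 5 genes, 1 was called, against 2.02% of all genes tested called lower. POLD2, an accessory subunit of polymerase delta, had 34.4 and 44.8 CPM with PMA, against 204 and 387 CPM untreated (−2.90 ± 0.45, adjusted p = 0.0354). Its adjusted p-values with PMA replicates 1 and 2 omitted one at a time were 0.107 and 0.0983, within 8.34e-08 to 0.107. The catalytic subunits did not pass the test. POLD1 had 59.5 and 78.0 CPM with PMA, against 186 and 191 CPM untreated (−1.45 ± 0.32, adjusted p = 0.0624), and POLE had 36.7 and 40.6 CPM with PMA, against 103 and 163 CPM untreated (−1.78 ± 0.38, adjusted p = 0.0603). Both passed without untreated replicate 1 (adjusted p = 0.0399 and 0.0201), within 5.70e-04 to 0.440 and 5.06e-04 to 0.337 over the alternatives. POLE2, a structural subunit of polymerase epsilon, had 0.736 and 0 CPM with PMA, against 8.12 and 12.8 CPM untreated (−4.86 ± 1.80, adjusted p = 0.169), within 0.0101 to 0.255 over the alternatives. POLD3 was nearest to 0, with 22.1 and 22.6 CPM with PMA, against 56.7 and 34.9 CPM untreated (−1.04 ± 0.41, adjusted p = 0.189). In lot 1, where POLE2 was above 0 in both libraries, the per-kilobase ratio of POLE2 to POLE was 0.0887 with PMA and 0.350 untreated.

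Of the 8 genes of the sliding clamp, its loader and lagging-strand joining, 3 fell, against 2.02% of all genes tested called lower. PCNA, the clamp that tethers polymerases and their partners, had 83.3 and 72.6 CPM with PMA, against 420.1 and 583 CPM untreated (−2.69 ± 0.34, adjusted p = 0.0264). LIG1, the ligase that seals Okazaki fragments, had 12.4 and 12.5 CPM with PMA, against 97.8 and 78.4 CPM untreated (−2.82 ± 0.36, adjusted p = 0.0270). RFC4, a subunit of the clamp loader, had 5.00 and 4.78 CPM with PMA, against 37.1 and 25.2 CPM untreated (−2.67 ± 0.45, adjusted p = 0.0396), and its exons overlap those of EIF4A2 on the opposite strand. The PMA replicates of LIG1 and of RFC4 nearly coincided. Omission of PMA replicate 1 and of PMA replicate 2 gave adjusted p-values of 0.0667 and 0.108 for PCNA, 0.118 and 0.151 for LIG1, and 0.178 and 0.220 for RFC4. With the lot as a block it was 0.0538 for RFC4. The ranges over the alternatives were 3.69e-10 to 0.108, 2.82e-12 to 0.151 and 4.69e-07 to 0.220 in the same order.

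The clamp loader subunits were spread widely. RFC3 had 4.88 and 1.86 CPM with PMA, against 49.4 and 24.3 CPM untreated (−3.46 ± 0.72, adjusted p = 0.0577) and passed under a lot block (adjusted p = 0.0374) and without untreated replicate 2 (0.0443), within 1.48e-05 to 0.195. RFC2 had 32.2 and 24.7 CPM with PMA, against 64.6 and 95.7 CPM untreated (−1.49 ± 0.39, adjusted p = 0.0852) and RFC5 had 12.4 and 14.3 CPM with PMA, against 41.6 and 27.5 CPM untreated (−1.38 ± 0.42, adjusted p = 0.114). RFC5 passed with DESeq2 (adjusted p = 0.0153). RFC1, the large subunit, was nearest to 0, with 36.5 and 35.1 CPM with PMA, against 107 and 44.7 CPM untreated. Its PMA and untreated levels were close in lot 2 and far apart in lot 1 (−1.08 ± 0.51, adjusted p = 0.256), and it passed without untreated replicate 2 (adjusted p = 0.0474, within 0.0474 to 0.703). FEN1, the nuclease that trims Okazaki fragments, had 12.9 and 7.72 CPM with PMA, against 37.3 and 108 CPM untreated (−2.82 ± 0.66, adjusted p = 0.0710). FEN1 and RFC2 passed without untreated replicate 1 (adjusted p = 0.0186 and 0.0317, within 2.93e-04 to 0.286 and 0.00690 to 0.554). FEN1 lies over exons of FADS2 on the same strand, and its level is uncertain.

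RPA, the trimer that coats single-stranded DNA in replication and repair, had the median log2 fold change nearest to 0 among the groups, at −0.81, and 0 of its 3 genes were called. At an unadjusted p under 0.05 there were 2, and DESeq2 called 1, against 12.5% and 10.2% of all genes tested that were lower. RPA1, the large subunit, had 79.9 and 71.1 CPM with PMA, against 142 and 122 CPM untreated (−0.81 ± 0.31, adjusted p = 0.176). RPA2 was nearest to 0, with 62.9 and 65.0 CPM with PMA, against 127 and 88.8 CPM untreated (−0.75 ± 0.34, adjusted p = 0.241). RPA3, the small subunit, had 11.9 and 6.66 CPM with PMA, against 30.3 and 41.6 CPM untreated (−1.96 ± 0.49, adjusted p = 0.0773), and passed with untreated replicate 1 left out (adjusted p = 0.0477, within 0.00290 to 0.484). The summed level of the 3 genes was 155 and 143 CPM with PMA, against 299 and 252 CPM untreated.

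**Figure D4:**
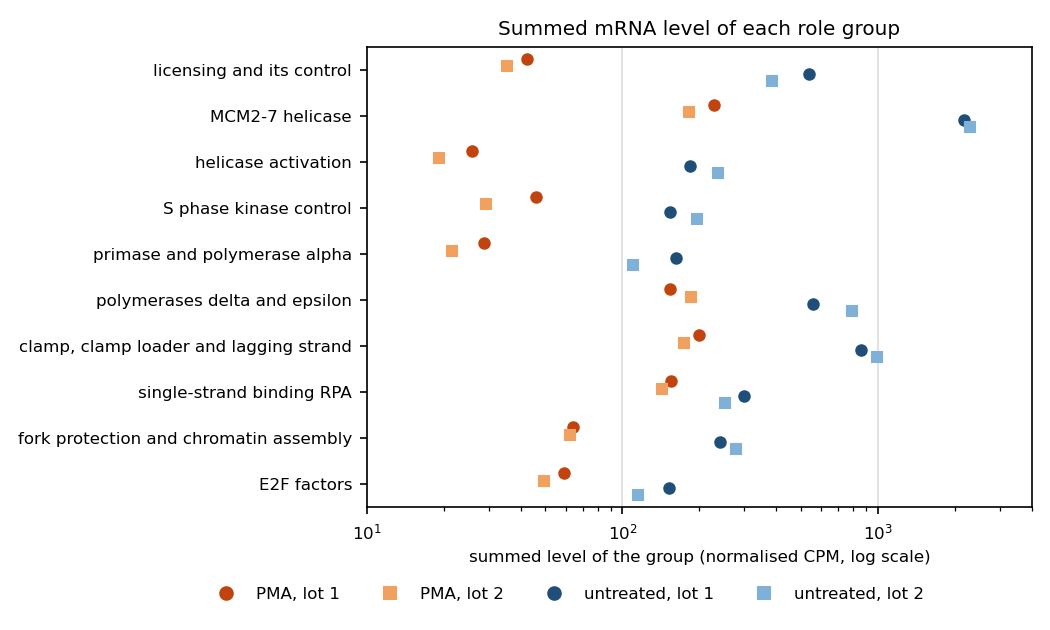
Summed level of each role group in each library, in normalised CPM on a log axis, with PMA in red (lot 1) and orange (lot 2) and untreated in dark and light blue. The PMA symbols lie left of the untreated ones in each group, and the gap is widest for licensing and for the helicase and its activation and narrowest for RPA.

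Of 5 genes that protect the fork or assemble chromatin behind it, 1 fell, against 2.02% of all genes tested called lower. TIMELESS, which holds the helicase and polymerases together, had 17.6 and 15.8 CPM with PMA, against 84.0 and 59.9 CPM untreated (−2.11 ± 0.38, adjusted p = 0.0453). A lot block took its adjusted p to 0.0550, and omission of PMA replicate 1 or 2 to 0.233 or 0.321, within 4.65e-06 to 0.321 over the alternatives. CHAF1B and CHAF1A are subunits of the chromatin assembly factor that puts histones onto new DNA. CHAF1B had 6.47 and 11.9 CPM with PMA, against 43.2 and 64.8 CPM untreated (−2.56 ± 0.50, adjusted p = 0.0526), and passed with the block (adjusted p = 0.0437). Its exons overlap those of MORC3 on the same strand, so its level is uncertain. CHAF1A had 22.5 and 26.8 CPM with PMA, against 57.4 and 106 CPM untreated (−1.73 ± 0.44, adjusted p = 0.0815). Both passed without untreated replicate 1 (adjusted p = 0.0275 and 0.0213), within 2.77e-05 to 0.254 and 0.00376 to 0.407. CLSPN, the checkpoint mediator claspin, had 3.71 and 0.454 CPM with PMA, against 17.4 and 33.7 CPM untreated (−3.62 ± 1.11, adjusted p = 0.114), and passed without PMA replicate 1 (adjusted p = 0.0300, within 0.00226 to 0.217). WDHD1, which links the helicase to polymerase alpha, was nearest to 0, with 13.6 and 7.68 CPM with PMA, against 39.1 and 14.5 CPM untreated, where PMA lot 1 and untreated lot 2 were close (−1.33 ± 0.65, adjusted p = 0.271).

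The E2F genes encode both activators and late repressors of the replication genes, and 0 of the 4 tested were called. At an unadjusted p under 0.05 there were 3, and DESeq2 called 2, against 12.5% and 10.2% of all genes tested that were lower. The activator E2F1 had 4.42 and 12.6 CPM with PMA, against 56.2 and 60.6 CPM untreated (−2.77 ± 0.62, adjusted p = 0.0636), and E2F2, another activator, had 0.276 and 0 CPM with PMA, against 17.4 and 9.62 CPM untreated (−6.67 ± 1.61, adjusted p = 0.0737). E2F1 passed with DESeq2 (adjusted p = 8.58e-05) and limma-voom (0.0319). The repressor E2F8 had 2.12 and 0 CPM with PMA, against 50.7 and 25.4 CPM untreated (−5.19 ± 1.90, adjusted p = 0.166). Their adjusted p-values lay within 3.45e-06 to 0.0808 for E2F2 and 0.00594 to 0.222 for E2F8 over the alternatives. E2F3, counted among the activators, had 52.3 and 36.6 CPM with PMA, against 27.5 and 19.1 CPM untreated. Both PMA libraries lay above both untreated ones, by a similar ratio in each lot, and the gene did not pass the test (0.93 ± 0.41, adjusted p = 0.237, within 0.119 to 0.804 over the alternatives). Of all genes tested, 31% had both PMA libraries above both untreated ones. Per kilobase of transcript, the ratio of E2F1 to E2F3 was 0.160 and 0.654 with PMA, against 3.87 and 6.01 untreated, so E2F3 mRNA outweighed E2F1 mRNA per length in both PMA libraries and the reverse held in both untreated ones. The ratio of E2F2 to E2F3 was 0.00483 and 0 with PMA, against 0.577 and 0.460 untreated.

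In both lots nearly all the genes were lower with PMA. The log2 ratio of PMA to untreated CPM, with 1 CPM added to each, had a median over the 53 genes of −2.39 in lot 1 and −2.74 in lot 2, and over all genes tested of −0.03 and 0.07. In 51 of the 53 genes it was below 0 in both lots, against 35.9% of all genes tested, and in 40 it was at least 2-fold lower in both, against 9.87%. It was lower in lot 2 than in lot 1 in 31 of the 53, against 45.6% of all genes tested. All 5 genes of S phase kinase control and 5 of the 6 of the helicase were among the 31, while 3 of the 4 genes of primase and polymerase alpha were lower in lot 1. With 1 library per group in a lot, a difference between lots has no replicate check.

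**Figure D5:**
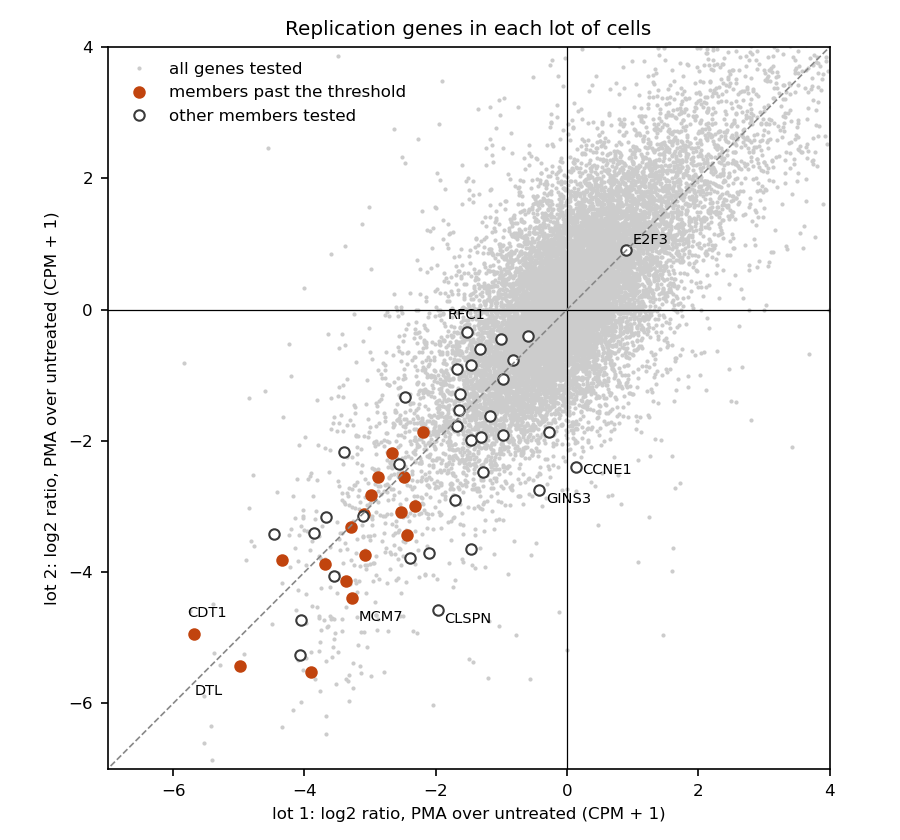
Log2 ratio of PMA to untreated CPM (1 CPM added) in lot 1 on the x axis and lot 2 on the y axis. Grey dots are genes tested, some of which lie beyond the axes, filled points are called members, open points other members, and the dashed line marks equal ratios. Nearly all members lie in the lower left part, CCNE1 lies right of 0 in lot 1, and E2F3 lies above 0 in both.

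Genes of the same pathway outside the 54 were called lower too. Of 39 other origin and fork genes, 10 fell and 0 rose, against 2.02% of all genes tested called lower, with a median log2 fold change of −1.50. Those with the smallest p were ASF1B, a histone chaperone that feeds the assembly factor (−4.0 ± 0.47, adjusted p = 0.0253), CCNA2, the S phase cyclin A (−4.04 ± 0.54, adjusted p = 0.0281), RNASEH2B, of the nuclease that removes RNA from DNA (−2.64 ± 0.38, adjusted p = 0.0313), NASP, a histone chaperone (−2.72 ± 0.42, adjusted p = 0.0349), and SSRP1, of the FACT histone chaperone (−2.27 ± 0.37, adjusted p = 0.0379). Others of the list had fold changes near 0. ORC4, a core subunit of the origin recognition complex, had 29.2 and 29.8 CPM with PMA, against 30.2 and 19.1 CPM untreated (0.26 ± 0.41, adjusted p = 0.743), and TOP1, the topoisomerase ahead of the fork, had 126 and 75.3 CPM with PMA, against 107 and 99.9 CPM untreated (−0.04 ± 0.37, adjusted p = 0.960). The count was larger without untreated replicate 1 and smaller without PMA replicate 2, as it was over all genes tested. Without PMA replicate 2, TICRR, a factor of origin firing, was called and all 10 were lost. The 5 named genes then had adjusted p-values of 0.0896, 0.0940, 0.152, 0.175 and 0.199. Without PMA replicate 1 they were 0.165 for RNASEH2B, 0.110 for NASP and 0.108 for SSRP1, and with the block 0.0557 for SSRP1. Their ranges over the alternatives were 7.50e-14 to 0.0896, 4.30e-12 to 0.0940, 1.47e-09 to 0.165, 1.67e-07 to 0.175 and 2.62e-06 to 0.199.

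Of 14 genes of nucleotide supply, 5 fell and 0 rose, against 2.02% of all genes tested called lower, with a median of −2.32. DESeq2 called 11 lower and 1 higher, against 10.2% and 12.9% of all genes tested. By limma-voom 10 were lower, against 3.87% of all genes tested, and 0 higher. The 5 genes included TK1, thymidine kinase (−4.81 ± 0.50, adjusted p = 0.0224), DUT, which removes dUTP (−3.32 ± 0.40, adjusted p = 0.0253), and the purine synthesis genes PAICS (−2.60 ± 0.35, adjusted p = 0.0281) and IMPDH2 (−2.47 ± 0.37, adjusted p = 0.0338). RRM2B, the p53-induced subunit of ribonucleotide reductase, had higher levels with PMA in both lots and did not pass the test, with 57.7 and 32.6 CPM with PMA, against 17.7 and 7.26 CPM untreated (1.85 ± 0.61, adjusted p = 0.132), within 0.0163 to 0.556 over the alternatives. It was called higher by DESeq2 (adjusted p = 0.0163) and without untreated replicate 1 (0.0425). Its S phase counterpart RRM2 had 26.8 and 4.05 CPM with PMA, against 219 and 239 CPM untreated (−3.90 ± 0.95, adjusted p = 0.0754), and passed with DESeq2 (adjusted p = 3.22e-05) and without PMA replicate 1 (0.0103), within 3.22e-05 to 0.106 over the alternatives. The number called lower was larger without an untreated replicate and smaller without a PMA replicate, as it was over all genes tested. Omitting PMA replicate 2 gave adjusted p-values of 0.0518 for TK1, 0.0904 for DUT, 0.165 for PAICS and 0.0842 for IMPDH2. Without PMA replicate 1 it was 0.0541 for DUT, 0.0757 for PAICS and 0.124 for IMPDH2. Over the alternatives the ranges were 2.48e-18 to 0.0518, 6.67e-12 to 0.0904, 1.99e-09 to 0.165 and 1.87e-08 to 0.124 in the order of naming.

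Of 14 E2F partners and pocket protein genes, 0 were called by edgeR, 4 were lower at an unadjusted p under 0.05, against 12.5% of all genes tested, and DESeq2 called 3 lower and 0 higher, against 10.2% and 12.9%. Their median log2 fold change was −0.79. The smallest p belonged to RBL1, the pocket protein p107, with 14.7 and 10.4 CPM with PMA, against 45.6 and 35.3 CPM untreated (−1.69 ± 0.42, adjusted p = 0.0760), and to TFDP1, the dimerisation partner of the E2Fs, with 128 and 117 CPM with PMA, against 235 and 257 CPM untreated (−1.01 ± 0.29, adjusted p = 0.100). Next came LIN9, of the complex that switches cell cycle genes between repression and activation, with 4.11 and 2.94 CPM with PMA, against 21.8 and 6.58 CPM untreated (−2.01 ± 0.75, adjusted p = 0.169). MYBL2, its partner in cycling cells, had 12.3 and 0 CPM with PMA, against 294 and 389.6 CPM untreated (−5.80 ± 2.24, adjusted p = 0.183). It passed without PMA replicate 2 (adjusted p = 0.0216) and with limma-voom (0.0450), within 0.00179 to 0.231 over the alternatives, of which the lowest is that without PMA replicate 1 and rests on 1 PMA library at 0. MYBL1, of the same family, had 0.276 and 0.844 CPM with PMA, against 5.98 and 1.27 CPM untreated (−2.68 ± 1.16, adjusted p = 0.224). RB1, the retinoblastoma gene, had 151 and 80.4 CPM with PMA, against 109.8 and 20.9 CPM untreated (0.83 ± 0.83, adjusted p = 0.590), with untreated lot 2 far below the other 3 libraries. Without untreated replicate 1 it was called higher (adjusted p = 0.0473, within 0.0473 to 0.949 over the alternatives). E2F4, the E2F of resting cells, had 98.3 and 102 CPM with PMA, against 85.5 and 122 CPM untreated (−0.06 ± 0.33, adjusted p = 0.936).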

How the data were processed

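Per the labels' protocols, poly(A) RNA of U937 cells was enriched from total RNA for the 4 libraries, and per the series' design text sequencing was by Ion Proton. HISAT2 2.1.0 and StringTie 2.1.1 are named, without roles, per the submitters' processing notes. Not given in the sources used here are the genome build, gene annotation, strand setting and counting program. The authors deposited estimated counts per gene, not scaled between libraries, for 60662 genes, of which 33746 are at 0 in all 4 libraries. They are whole numbers, so rounding changed none. The authors' other deposited table lists, per gene, a signal (counts scaled by 1 factor per library), their log2 ratio, and a p-value and q-value from a test not named in these sources.

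From the counts, PMA was compared with untreated in R 4.3.3 by edgeR 4.0.16 with TMM factors, a filterByExpr filter with the groups given, and quasi-likelihood tests adjusted by Benjamini-Hochberg at 0.05 over 16451 genes, without a block. Standard errors came from the log2 fold change and its F statistic. DESeq2 1.42.0 and limma 3.58.1 (voom), other scaling factors, no filter, the lot as a block and the omission of each library were alternatives. Libraries are paired by the lot their titles give. Across genes, same-lot libraries deviated together from their groups' mean log2(CPM + 1), with a correlation of 0.246. Lengths, of the principal transcript, and overlapping exons came from GENCODE release 29, matched by gene ID, which may not be the authors' annotation. In it, exons of 22 of the 54 genes overlap another gene, so their levels are uncertain, as are those of genes with processed copies. The members, gene lists and tests were chosen with earlier results of these data known. All 18 called members, the member of each role group nearest to 0 and the 5 genes of each other list with the smallest p are named, except 1 gene that is not reported here, and others beside them were chosen after their values were seen. The floors of 3 counts cover counting error only.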

Additional observations from a re-analysis of the deposited data

Results flagged for a closer look

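CCNE1, a cyclin E gene, had ratios of opposite sign in the lots. The log2 ratio of PMA to untreated CPM, with 1 CPM added, was 0.13 in lot 1 and −2.40 in lot 2. This difference was not tested, since each lot has 1 library per group. The gene had 4.85 and 2.21 CPM with PMA, against 4.34 and 15.9 CPM untreated.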

How the results depend on the processing

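The main count of 18 lower members became 39 with DESeq2 and 28 with limma-voom, and 6 to 27 when 1 library was left out. The other alternatives gave 18 to 21, and 0 members were called higher in any alternative. The count of 10 lower genes among other origin and fork genes became 21 with DESeq2, and 1 to 16 when 1 library was left out. The median log2 fold change of the tested members was −2.77, and −2.43 to −2.88 when 1 library was left out. Of the 53 tested members, 52 had a fold change below 0 in every alternative, and none changed direction. Over all genes, DESeq2 called 1684 lower and 2127 higher and limma-voom 636 and 1149, against 332 and 705 with edgeR. Leaving out untreated replicate 1 gave 1085 lower genes, and leaving out PMA replicate 2 gave 79. With upper-quartile factors the median over all genes tested was −0.17 and that over the members −2.94. The lot as a replicate block gave 18 lower members and 244 lower genes in all. Replicates had a biological coefficient of variation of 0.626, which limits what 2 libraries per group can call. The cause of the changes between tools was not tested.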
